A study of Drosophila melanogaster with 3 samples.

Results

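The genes described here are CHES-1-like and 9 other forkhead genes of Drosophila melanogaster: foxo, FoxK, FoxP, fkh, bin, croc, slp1, slp2 and jumu. CHES-1-like was chosen by its number of CG2120 peaks, and the other genes as relatives of it, so its count is a description with no test. They are 10 of 13968 protein coding genes in the dm6 annotation. Every peak summit inside a gene or within 2 kb of it was assigned to that gene, which gave 28 of the 8340 summits in the authors' reproducible ("optimal") peak list.

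The assay was ChIP-seq of CG2120, a C2H2 zinc finger protein, in whole embryos aged 18 to 24 h. All embryos carried a stable transgene encoding CG2120 with GFP at its C terminus, and anti-GFP antibody recovered the fusion protein from chromatin that had been sonicated to fragments of 200 to 800 bp. There were 3 biological replicates of this 1 group, so no contrast between conditions exists. Signal from whole embryos is summed over all tissues, so the cells in which a gene was occupied cannot be told apart. The antibody reports the fusion protein, not CG2120 without the tag.

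Forkhead proteins bind DNA through a winged helix domain and act in tissue specification, organ formation and metabolism. CHES-1-like and jumu belong to the FoxN group and act together in the specification and division of heart progenitors in the fly embryo. foxo is the transcription factor that insulin signalling holds out of the nucleus.

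CG2120 peaks were spread along the 5' part of CHES-1-like, before its coding sequence, and were few or absent at the other forkhead genes. CHES-1-like held 15 summits, foxo 4, FoxK 3, and fkh, bin and jumu 2 each, while FoxP, croc, slp1 and slp2 held none. Thus 6 of the 10 genes had a summit, where 52.2% of all protein coding genes (7290 of 13968) did. A summit within 500 bp of one of the gene's own start sites, called a promoter summit here, was found at 4 of the 10 genes, CHES-1-like, foxo, FoxK and fkh, against 34.0% of all protein coding genes (4747 of 13968). Both shares of the 10 genes lie near the shares of all genes, but CHES-1-like was chosen by its peaks. The 10 do not stand for all forkhead genes: 0 of the 9 other annotated ones, described further on, held an optimal summit. The median was 2 summits per gene among the 10 and 1 among all genes, and the 10 genes were also longer, with a median of 4571 bp against 2164.5 bp.

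The sequences at the strongest summits show what DNA lay under these peaks. Shown first are the 101 bases centred on each of the 5 CHES-1-like summits that ranked among the 500 strongest of the optimal list, from strongest to weakest. They are from the plus strand of the RefSeq release 6 assembly (dm6), 5' to 3', and the gene lies on the minus strand. Capitals mark matches, on either strand, to any of 9 short motifs searched (listed with their frequencies further on).
CHES-1-like at chrX:7697021-7697121: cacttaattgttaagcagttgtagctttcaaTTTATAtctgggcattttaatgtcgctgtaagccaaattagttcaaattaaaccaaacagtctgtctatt
CHES-1-like at chrX:7706963-7707063: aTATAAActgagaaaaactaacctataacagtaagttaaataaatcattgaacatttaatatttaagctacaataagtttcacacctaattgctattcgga
CHES-1-like at chrX:7698373-7698473: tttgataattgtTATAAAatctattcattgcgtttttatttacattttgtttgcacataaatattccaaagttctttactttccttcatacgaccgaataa
CHES-1-like at chrX:7700362-7700462: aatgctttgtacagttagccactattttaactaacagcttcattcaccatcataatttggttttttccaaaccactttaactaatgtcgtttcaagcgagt
CHES-1-like at chrX:7705602-7705702: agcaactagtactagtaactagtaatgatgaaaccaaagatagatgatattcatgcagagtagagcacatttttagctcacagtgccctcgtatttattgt

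At the other genes the windows shown are the promoter summit of foxo, the promoter summits of FoxK and fkh that were also their strongest, the neighbouring pair upstream of bin, and the stronger of the pair in jumu. The strand and the capitals are as above.
foxo at chr3R:14056648-14056748: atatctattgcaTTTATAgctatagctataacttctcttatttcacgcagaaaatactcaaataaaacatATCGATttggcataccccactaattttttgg
FoxK at chr3L:11118774-11118874: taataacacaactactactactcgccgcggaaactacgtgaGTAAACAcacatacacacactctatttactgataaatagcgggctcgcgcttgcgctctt
fkh at chr3R:28585441-28585541: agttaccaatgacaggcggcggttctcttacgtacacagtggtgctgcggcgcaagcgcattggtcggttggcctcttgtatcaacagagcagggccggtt
bin at chr3L:6989137-6989237: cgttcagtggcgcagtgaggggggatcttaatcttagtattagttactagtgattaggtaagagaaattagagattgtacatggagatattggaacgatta
bin at chr3L:6989347-6989447: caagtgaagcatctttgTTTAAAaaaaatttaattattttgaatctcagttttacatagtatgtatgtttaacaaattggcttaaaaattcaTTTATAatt
jumu at chr3R:10351439-10351539: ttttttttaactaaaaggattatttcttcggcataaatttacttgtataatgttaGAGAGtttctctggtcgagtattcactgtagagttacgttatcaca

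Of the 5 CHES-1-like windows, 3 hold TATAAA or its reverse complement, and the other two hold no match to any of the 9 motifs. The windows are rich in A and T: over the 15 CHES-1-like summits the median was 68.3% (range 48.5 to 76.2%), and over the 13 summits of the other members it was 63.4%. All 8340 optimal summits had a median of 66.3%, against 56.4% in windows shifted by 500 bp. The fkh promoter window had the lowest share of those shown, at 42.6%.

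CHES-1-like (FBgn0029504, chrX:7682338-7709385, minus strand) is 27048 bp long and has 4 annotated start sites, at 0, 4422, 12681 and 14467 bp from its 5' end. Among the 8340 strongest peaks of each replicate's own list it held 16, 13 and 15 summits in replicates 1, 2 and 3 (mean 14.7 ± 1.53 SD, n = 3). At least 15 summits were found at 13 protein coding genes in all (0.0931%), a background that the choice of CHES-1-like fixes. Just inside and level with it, Eip75B, Pdp1 and dnc also held 15. CG32264, SNF4Agamma and tara held 16, while Snoo and bun, just outside, held 14.

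**Figure D1:**
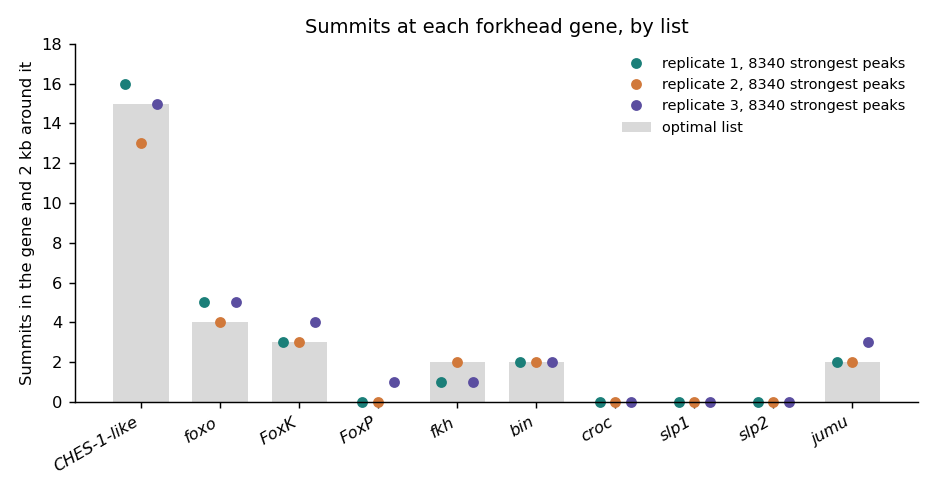
Summits at each of the 10 forkhead genes and 2 kb around it, in the optimal list (grey bars) and among the 8340 strongest peaks of each of the 3 replicates (points). The replicate points for CHES-1-like are 16, 13 and 15, and those of croc, slp1 and slp2 are all at 0.

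CHES-1-like reached this count at a shorter length than the genes level with it, which span 55912 bp (Pdp1) to 167328 bp (dnc). Its density was 0.483 summits per kb of gene and flanks. Among the 1985 protein coding genes of at least 10 kb, the median was 2 summits and 0.0570 per kb, and 531 had none. In a comparison chosen after the values were seen, 3 of these 1985 genes had the density of CHES-1-like or more: CG42258 (13 summits, 0.688 per kb), CG14434 (10 summits, 0.519 per kb) and CHES-1-like itself.

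**Figure D2:**
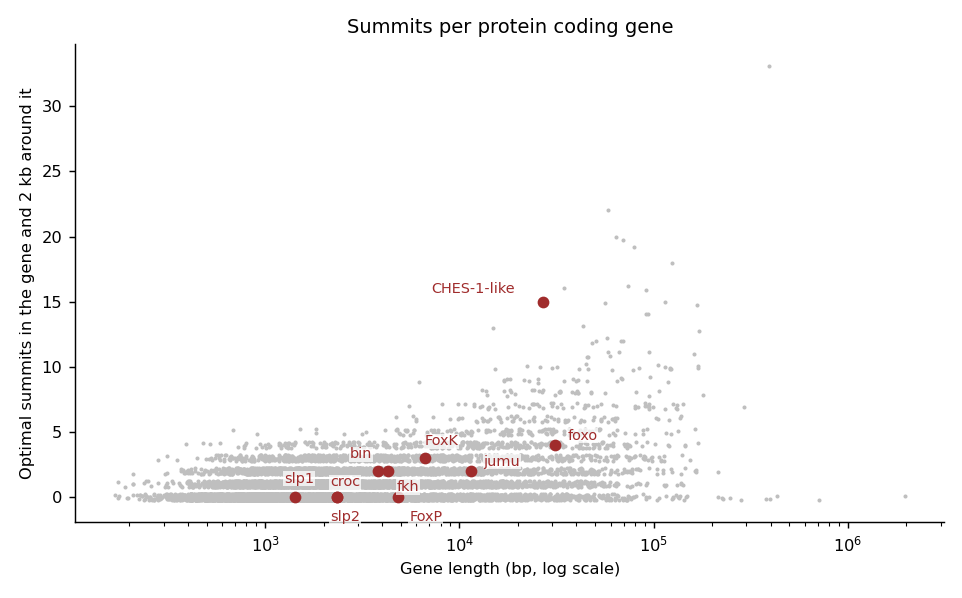
Optimal summits in each protein coding gene and 2 kb around it (y axis) against gene length in bp (x axis, log scale). The 10 forkhead genes are red and labelled, all other genes are grey with a small vertical jitter so that points do not hide each other, and CHES-1-like stands above most genes of its length.

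Among genes with at least 10 summits, those nearest to CHES-1-like in summits per kb were CG14434, at a log2 difference of 0.10, tara at −0.22 and aop at −0.34. tara held 16 summits and CG14434 and aop 10 each. Their summits were weaker at the median, with signals of 420, 272 and 355 against 699 at CHES-1-like. The signal is the enrichment value that the authors' peak caller gave each peak in the optimal list. Likeness in density over these 4 genes is a description only.

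All 15 CHES-1-like summits lay upstream of its protein coding sequence. The first coding base is 19390 bp from the 5' end, and the last summit is at 18581 bp. One summit was 1575 bp upstream of the gene, 1 was in the 5' UTR exon 241 bp after the most upstream start site, and 13 were in introns. The summits spanned 20156 bp, with 14 gaps between neighbours of 201 to 3353 bp (median 1383.5 bp). Of these gaps, 2 were under 500 bp.

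**Figure D3:**
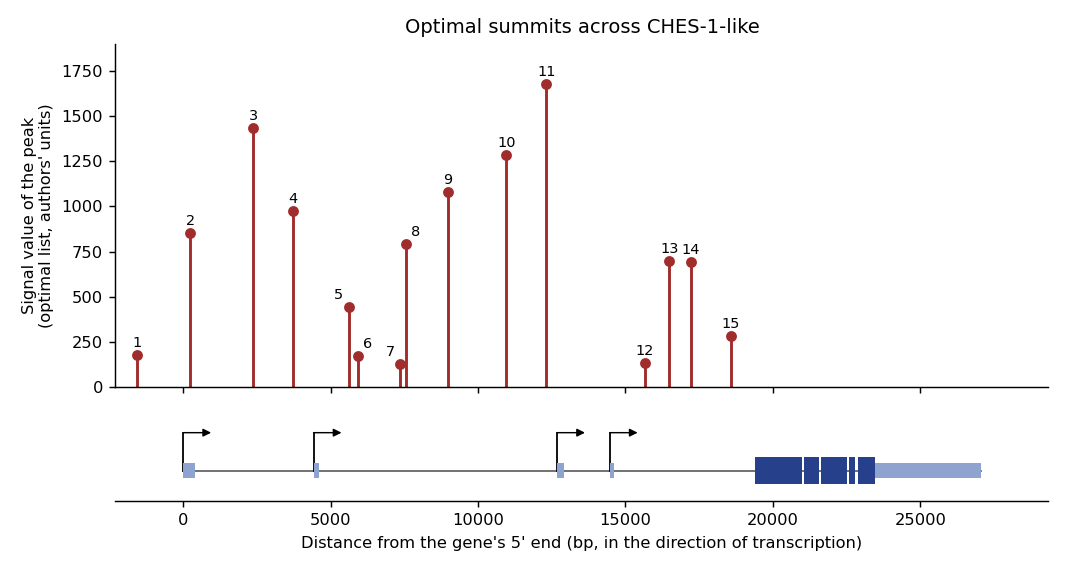
CHES-1-like drawn from its 5' end, with the position of each of the 15 optimal summits (x axis, distance in bp) and its signal (y axis, the authors' value) above the gene's exons (dark where coding, light where noncoding) and start sites (arrows). All 15 summits lie before the first coding base at 19390 bp.

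The strongest summits of the gene sat inside it, not at its 5' end. Summit 11, counted from the 5' end, had a signal of 1679 and rank 155 of 8340, with ranks of 175, 148 and 154 in replicates 1, 2 and 3. It lay 367 bp upstream of the third start site. Summit 3, at 2372 bp, followed with a signal of 1436, rank 217 and replicate ranks of 190, 194 and 299, and its nearest start site was that of the noncoding RNA gene lncRNA:CR43287, 762 bp away. Summit 10, at 10962 bp, had a signal of 1283, rank 286 and replicate ranks of 320, 252 and 279. These 3 summits stayed among the 320 strongest peaks in every replicate.

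Summit 9, at 8973 bp, had a signal of 1081, rank 385 and replicate ranks of 338, 433 and 445. Summit 4, which was 689 bp upstream of the canonical start site, had a signal of 973, rank 497 and replicate ranks of 485, 452 and 544. Summit 2, the one at the most upstream start site, was weaker than all of these, at 853, rank 630 and replicate ranks of 623, 732 and 520. The promoter at the 5' end was thus neither the strongest site of the gene nor a weak one.

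The next summits in strength stood between or downstream of these. Summit 8, at 7567 bp, had a signal of 792 and replicate ranks of 653, 856 and 633. Summits 13 and 14, at 16490 and 17226 bp, had nearly equal signals of 699 and 690. Their replicate ranks were 976, 878 and 876 for summit 13, and 932, 853 and 854 for summit 14. Summits 13 and 14 lie in the stretch between the last start site and the first coding base.

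The weaker summits follow. Summit 5 had a signal of 445 and replicate ranks of 1848, 2225 and 1728. Summit 15 had 282 and ranks of 3193, 3104 and 4520. Summit 1, upstream of the gene, had 179 and ranks of 6027, 7135 and 5274. The remaining 3 were missing from the strongest peaks of at least 1 replicate.

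Summit 6 had a signal of 170 and was matched within 100 bp in replicate 1 (rank 4800) and in neither of the others. Summit 7 had a signal of 128, ranks of 4185 and 5265 in replicates 1 and 2 and no match in replicate 3, and it shares its peak interval (chrX:7701639-7702034) with summit 8. Summit 12 had a signal of 132 and ranks of 7898, 8534 and 6418. Summits 6, 7 and 12 are thus the ones of the 15 that were not among the 8340 strongest peaks of all 3 replicates.

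Of the 15 summits, 9 ranked among the 1000 strongest of the optimal list and 5 among the 500 strongest. The median signal was 699, at percentile 89.1 of all optimal peaks, whose median signal was 236. The ranks of the summits were ordered alike in the replicates, with Spearman coefficients of 0.996 (14 summits, replicates 1 and 2), 0.989 (13, replicates 1 and 3) and 0.984 (13, replicates 2 and 3). These are descriptions over sites of 1 gene that share the same libraries. The 42 matched replicate summits lay a median of 11 bp from the optimal summit.

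**Figure D4:**
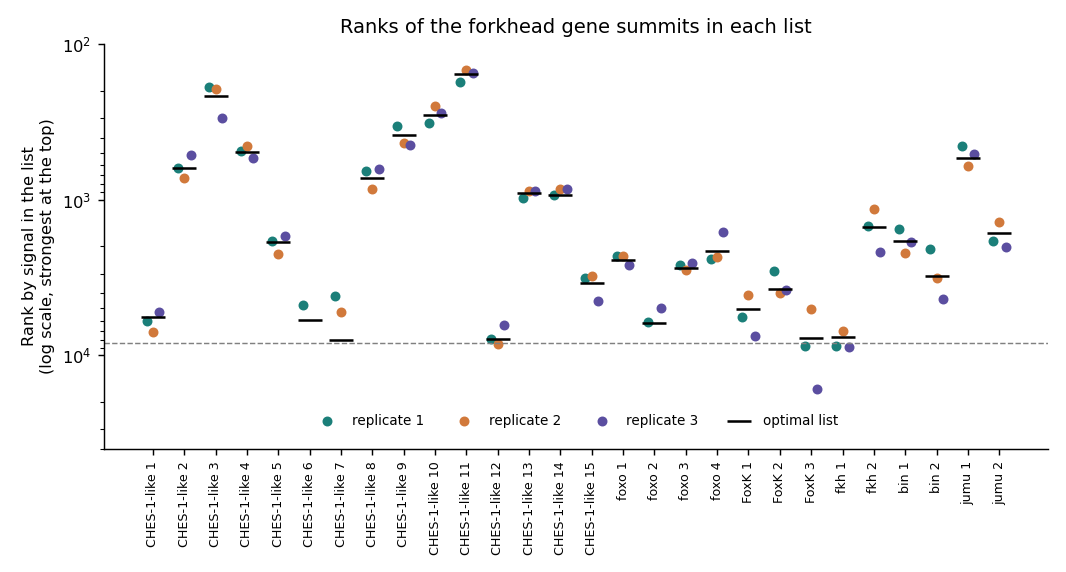
Rank of each optimal summit of the forkhead genes (1 is the strongest) in the peak lists of replicates 1, 2 and 3 (points) and in the optimal list (bars), on a log axis with the strongest at the top and a dashed line at rank 8340. Summits are numbered from the gene's 5' end, a missing point is a replicate with no summit within 100 bp, and CHES-1-like summits span replicate ranks from 148 to 8534 and the strongest have close ranks in all 3 replicates.

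foxo (FBgn0038197, chr3R:14056945-14087978, plus strand) is longer than CHES-1-like, at 31034 bp, and held 4 summits (5, 4 and 5 in the replicates). Its promoter summit was 247 bp upstream of the first start site, with a signal of 371 and replicate ranks of 2292, 2312 and 2625. A summit in intron 2, at 5276 bp and before the first coding base, had 337 and ranks of 2649, 2832 and 2544. The strongest, at 406 with ranks of 2408, 2352 and 1623, lay past the 3' end of foxo and 496 bp upstream of the start of Npc2b. It may thus be counted to either gene. The remaining intron 2 summit had 164, with ranks of 6085 and 4986 in replicates 1 and 3 and no match in replicate 2.

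FoxK (FBgn0036134, chr3L:11114169-11120783, minus strand), a forkhead factor that acts in midgut differentiation, held 3 summits (3, 3 and 4 in the replicates). The strongest was 358 bp upstream of its most downstream start site, at 259 with ranks of 2898, 3967 and 3799. The summit 60 bp after its first start site had 200 and ranks of 5735, 4129 and 7572, and the start of mRpL2, a mitochondrial ribosomal protein gene, also lies within 500 bp of it. The third, at 132, lay in Sod1, the copper and zinc superoxide dismutase gene, 477 bp from its start, with ranks of 8722, 5093 and 16631. FoxK summits were weaker than the median of all optimal peaks, except the strongest.

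fkh (FBgn0000659, chr3R:28580976-28585264, minus strand), the FoxA factor of gut and salivary gland, held 2 summits (1, 2 and 1 in the replicates). The promoter summit, 227 bp upstream, had a signal of 512 and ranks of 1488, 1152 and 2176. The other, 1945 bp upstream, had 135 and ranks of 8791, 6986 and 8905, so it was among the 8340 strongest of replicate 2 and of no other. bin (FBgn0045759, chr3L:6990622-6994447, plus strand), the FoxF factor of visceral mesoderm, held 2 summits in the optimal list and in each replicate. They lay 1435 and 1225 bp upstream in overlapping peaks, at 450 (ranks 1551, 2198 and 1865) and 305 (ranks 2090, 3197 and 4332). No summit was within 500 bp of the bin start site.

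jumu (FBgn0015396, chr3R:10350182-10361612, plus strand), which acts with CHES-1-like in heart progenitors and also modifies position effect variegation, held 2 summits (2, 2 and 3 in the replicates). Both were in intron 1. The first, 1307 bp after the start, had a signal of 936 and rank 542, with replicate ranks of 455, 612 and 512. It was the strongest summit outside CHES-1-like in these genes and the only one of the other 13 that ranked among the 1000 strongest. The second, 6867 bp after the start, had 487 and ranks of 1844, 1400 and 2011. Neither was at the promoter.

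**Figure D5:**
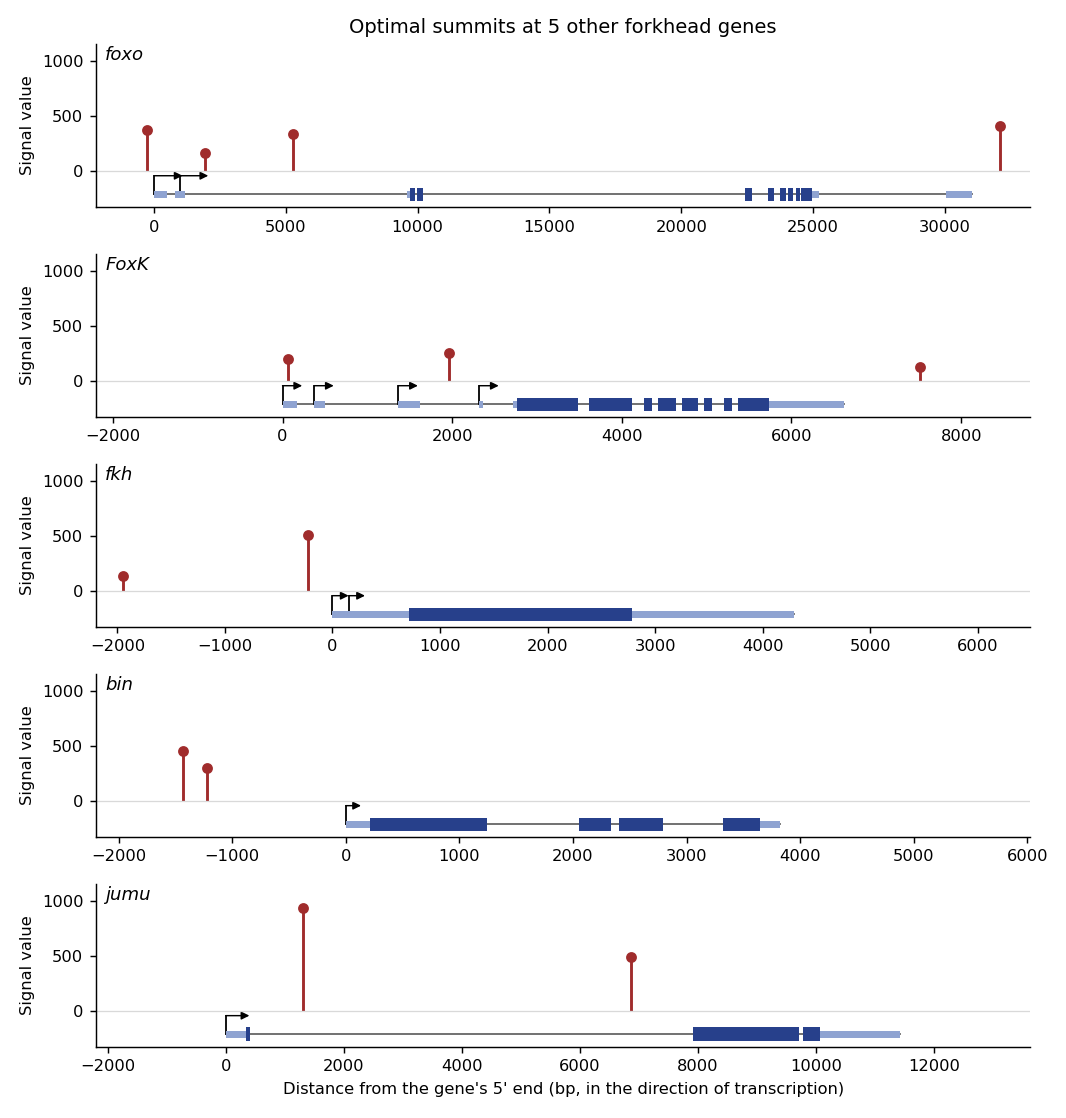
The forkhead genes other than CHES-1-like that held optimal summits, each drawn from its 5' end with distance in bp on the x axis and the signal of each summit (the authors' value) on the y axis, above its coding (dark) and noncoding (light) exons and its start sites (arrows). foxo, FoxK and fkh have a summit within 500 bp of a start site, and bin and jumu have none.

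The 4 genes without an optimal summit differed in how far they were from one. slp1 (FBgn0003430, chr2L:3825675-3827099) and slp2 (FBgn0004567, chr2L:3836840-3839185), neighbouring segmentation genes of the FoxG group, had no peak in the pooled list or in any replicate list. A single optimal summit stood between them, 5423 bp downstream of slp1 and 4318 bp upstream of slp2, with a signal of 429 and replicate ranks of 1703, 2022 and 2311. croc (FBgn0014143, chr3L:21474133-21476479), a FoxC gene of head development, had none in the pooled list and 1 weak peak in replicate 3 (rank 14556). FoxP (FBgn0262477, chr3R:9726020-9730872), which acts in neurons, had 4 weak peaks in the pooled list, of which the best ranked 16635, and its best replicate ranks were 15968, 20471 and 4443. Because these lists hold only what the caller reported, a gene with no peak was not shown to be free of the protein.

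Over all 28 summits, 18 were in introns, 6 upstream of the gene, 2 in 5' UTR exons and 2 downstream. None was in a coding exon. Within 500 bp of one of the gene's own start sites were 6 of the 28, among them intronic summits at CHES-1-like and FoxK. A further 2 lay within 500 bp of a start site of another gene only. Among the 8340 strongest peaks of all 3 replicates were 22 of the 28, with 3 in 2 replicates and 3 in 1. Neither these positions nor this replicate support was counted over all 8340 optimal summits, so no background is given for them. The 8340 strongest peaks of replicates 1, 2 and 3 held 29, 26 and 31 summits at the 10 genes (mean 28.7 ± 2.52 SD, n = 3), and 6, 6 and 7 of the genes had one among them.

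The 9 motifs were searched on both strands of the 101 base windows. TATAAA was found at 12 of the 28 summits (42.9%), 7 of them in CHES-1-like, against 19.9% of all 8340 optimal summits and 10.3% of windows 500 bp away. TTTAAA, a palindrome, was found at 7 of 28 (25%) against 18.7% and 8.65%. Both are made of A and T alone, and the 28 windows had a median of 66.8% A and T against 66.3% over all optimal summits. The part of base composition in these shares was not tested. AGATAA was found at 2 of 28 and GAGAG at 3 of 28, against 7.13% and 10.01% of all optimal summits. With 100 bp searched on each side of the summit, in place of 50, GAGAG was found at 10 of the 28, AGATAA at 4, TTTAAA at 11 and TATAAA at 13. The wider windows were not searched over all optimal summits, so the shares above are not a background for these counts. No match says only that these letters are not in the window.

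The forkhead consensus TGTTTAC was found at 1 of the 28 summits, FoxK's strongest, and at 3.29% of all optimal summits and 2.36% of the windows 500 bp away. ATCGAT, the core shared by DREF and BEAF-32 sites, was found at the foxo promoter summit alone of the 28, and at 7.77% of all. The full TATCGATA, found at 2.95% of all optimal summits and containing ATCGAT, was at none of the 28. The wider windows held TGTTTAC at 2 and ATCGAT at 3 of the 28, again without a share over all optimal summits. GGTCACACT and CACGTG were also at none, against 1.08% and 0.827% of all.

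Further lists of genes place these counts. None of the 9 other annotated forkhead genes (fd3F, fd19B, fd59A, FoxL1, fd96Ca, fd96Cb, fd102C, Crg-1 and CG32006) held an optimal summit. Of all protein coding genes, 52.2% held a summit and 34.0% a promoter summit. Among the replicates' strongest peaks, replicate 2 alone had 1, at fd3F. The median length of these 9 genes was 2548 bp, against 4571 bp for the 10 genes and 2164.5 bp for all protein coding genes. Of 13 genes of the insulin branch and known foxo targets, 12 held a summit and 11 a promoter summit, where 52.2% and 34.0% of all protein coding genes did. The median length of these 13 genes was 7354 bp, against 2164.5 bp for all genes. Not all of them are long: Thor, at 1179 bp, held 3 summits and had a promoter summit. InR, the insulin receptor gene, and bmm, a lipase gene, held 6 each, and Sesn, a stress response gene, held a summit with a signal of 2323. Pdk1 held none in the optimal list, but 1, 1 and 2 among the 8340 strongest peaks of replicates 1, 2 and 3.

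Of 11 heart and visceral mesoderm genes, 8 held a summit and 4 a promoter summit, again beside 52.2% and 34.0% of all genes, and their median length was 3813 bp. Mef2, the muscle transcription factor, held 11, with the strongest at a signal of 4190, which exceeds all of CHES-1-like. fz and fz2, Wnt receptor genes, held 7 each, tin and polo held 2 each, and Hand, Doc1 and Doc2 held 1 each. bap, pnr and Doc3 held none. fz and fz2 are 94297 and 94399 bp long, and longer genes can hold more summits.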

How the data were processed

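The authors deposited peak lists in narrowPeak format for 3 biological replicates, the pooled replicates and a reproducible (optimal) set. Per the labels there is 1 possible control experiment, and the deposited notes give every replicate and pooled list the same 1 input file beside the replicates' alignments. The peak caller and aligner were not given in the sources used here. Signal values, as deposited, rank peaks within a list and are not scaled between lists, so across replicates only ranks are given. The authors' −log10 q value is at its highest in 6897 of 8340 optimal peaks, and it was not used for ranking. The optimal list is the 8340 strongest of the 30000 pooled peaks, and so is made from the replicates it is compared with. Replicate lists hold 30000, 30000 and 27353 peaks, background included. Read counts were not used, so depth is unknown.

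The dm6 lists were analysed with the Ensembl release 115 annotation of the release 6 genome, and all peaks end within its arm lengths. The dm3 lists were not used here. Summits were assigned to a gene within 2 kb, and called promoter summits within 500 bp of a start site. A replicate summit matched within 100 bp. Motifs were searched in 101 base windows. The text names all 10 genes, genes with a start site near their summits, the listed gene sets and the 3 genes nearest CHES-1-like in density. These genes and lists were chosen with earlier results of these data known. No test was run, since there is 1 group. Counting was tested on simulated data. Alternatives varied the window, the promoter distance, the list, the matching distance and the replicates. Tools were Python 3.11.15, pandas 2.3.3, numpy 2.4.6 and matplotlib 3.10.9.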

Additional observations from a re-analysis of the deposited data

How the results depend on the processing

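Summits at the 10 genes numbered 17 when a summit had to be found in all 3 replicates within 50 bp. They numbered 22 within 100 bp and 28 without this requirement. Genes with a promoter summit numbered 1 with 200 bp as the promoter distance, against 4. The promoter summits nearest to a start site lay 60 bp from it at FoxK, 227 bp at fkh, 241 bp at CHES-1-like and 247 bp at foxo, so 200 bp keeps FoxK alone. The share of all genes at 200 bp was not counted. Each replicate was also left out in turn, keeping optimal summits among the 8340 strongest peaks of both others. This kept 12 to 13 summits at CHES-1-like, 22 to 24 at the 10 genes, 4 genes with a promoter summit and 6 with any summit. The optimal list was still made from all 3 replicates, so these counts could only fall or stay. By number of summits, the value it was chosen by, CHES-1-like ranked 10 among protein coding genes with its 15 summits as reported. It ranked 2 with 11 summits in the stronger part of the optimal list and 8 with 14 when no window was added. It ranked 10 with 13 when summits within 500 bp were counted once, an alternative chosen after seeing the data. No paired analysis was possible because there is 1 group. Of the other alternative values for these 4 counts, 38 stayed within 1.5 times the count given. Of the values for single genes, motifs and ranks, 91 stayed close and 24 moved. The 24 include 5 of the 9 motif counts, all higher with 100 bp searched on each side. Those windows contain the narrower ones, so the motif counts could only rise or stay. The 91 include values for FoxP, croc, slp1 and slp2, which held no optimal summit. Settings that only removed or merged summits, or narrowed the window, could not change that. The 91 also include the counts at CHES-1-like, which are already among the 38. The depth is unknown, so a missing peak cannot be told from one too weak to call.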

Other observations

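Peaks among the 8340 strongest of a replicate but over 100 bp from any optimal summit were found at 5 of the 10 genes. The share of all protein coding genes with such a peak was not counted. At CHES-1-like, replicates 1 and 3 both had one near the same place, at chrX:7691555 (rank 7158) and chrX:7691565 (rank 6396). In jumu, replicate 3 had one at chr3R:10356846 (rank 2061), 203 bp from the nearest optimal summit. At FoxP, replicate 3 had one at chr3R:9725668 (rank 4443), 15207 bp from the nearest optimal summit. In the pooled list below the optimal part, foxo had 24 further weak peaks, CHES-1-like 10, FoxK 6, jumu 5, FoxP 4, bin 2 and fkh 1. The best of the foxo peaks ranked 9159.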
